A study of Mus musculus with 2 samples.

Results

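The patatin-like and neutral lipases examined here were 7 genes of the Pnpla family, Pnpla1, Pnpla2, Pnpla3, Pnpla5, Pnpla6, Pnpla7 and Pnpla8, with the lipase activator Abhd5 and the hormone-sensitive lipase Lipe. They were taken by name from the array's own gene annotation, control spots aside. These 9 genes, of 24065 named genes on the array, were covered by 12 probes, and all 12 probes were well above background on both arrays. The skin of newborn C57BL/6N mice on postnatal day 0 was compared between animals without Pla2g4e (Pla2g4e-/-) and wild-type animals (Pla2g4e+/+). Each genotype was represented by 1 array, loaded with a pool of equal amounts of RNA from 5 animals. The series concerns how Pla2g4e, a cytosolic phospholipase A2 that makes precursors of N-acylethanolamines, bears on psoriasis-like skin inflammation. How the allele was made and the sex of the animals were not stated in the labels.

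Fat stored in droplets is broken down in steps. Pnpla2, also called ATGL, releases the first fatty acid from triacylglycerol, with Abhd5 as its activator, and Lipe cuts the resulting diacylglycerol. In the epidermis Pnpla1, helped by Abhd5, joins linoleate to omega-hydroxyceramides, the lipids that seal the skin barrier. Pnpla6 and Pnpla7 hydrolyse lysophospholipids, Pnpla8 is a calcium-independent phospholipase of mitochondria and peroxisomes, and Pnpla3 and Pnpla5 are relatives of Pnpla2 known from liver and fat.

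The differences past 1.5-fold were carried by 4 probes of 60 bases each, for Pnpla2, Pnpla7, Pnpla5 and Pnpla3. The opening 30 bases of each are shown, 5′ to 3′, with those of the further Pnpla3 probe that fell short of 1.5-fold, because they define which transcript each value reports. No letters are in capitals here.

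Pnpla2: agagtgtgtgaagaattatttatttttgcc
Pnpla7: ccccaaggaaacgtatgctgacttccagag
Pnpla5: tgacccacacttatctgagggattgatccc
Pnpla3, brighter probe: gcaaactagtggaacagcagaaggattgaa
Pnpla3, dimmer probe: tatccagtggctacaatgggcgacatccca

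Probes of different genes in the set shared runs of at most 9 bases, and 0 other probes on the array shared a run of 20 bases with any of the 12. On mm9 the Pnpla2 probe (A_55_P1961039) lies on chromosome 7 at 148645928 to 148645987 and the Pnpla7 probe (A_51_P276235) on chromosome 2 at 24908961 to 24909019. The Pnpla5 probe (A_55_P2154645) lies on chromosome 15 at 83943051 to 83943110. The Pnpla3 probes lie on the same chromosome at 84019823 to 84019882 (A_51_P389265, the brighter) and 84016440 to 84016499 (A_55_P2025514). Whether a probe lies in coding or untranslated sequence was not analysed here.

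Signals are the scanner software's processed intensities in arbitrary units. A difference is the knockout value minus the wild-type value on the log2 scale, after each array was scaled to the 75th percentile of its probes. The scaling added 0.09 log2 to every difference, so equal readings give a slightly positive value. With 1 array per genotype there is no replicate error and no test. The error given with a difference is the software's own estimate for a pair of spots, which leaves out the spread between animals. Across 19245 genes measured on both arrays that error had a median of 0.20 log2. It comes from the software's error model and was 0.204 to 0.208 for the 12 probes, so it barely varies by gene. Where the differences of separate genes are compared, the error given combines the errors of both genes as if independent. It too leaves out the spread between animals. Over repeated spots of the same probe, the SD of the difference had a median of 0.04 log2.

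The facts of the whole comparison bear on every value. Pla2g4e, the targeted gene, read 662 in wild-type skin and 319.6 in knockout skin, a difference of -0.96 log2 with an error of 0.20. Its other probe was dim, at 10.6 and 11.7, and differed by 0.24 with an error of 0.53. The labels do not name the deleted exons, so these probes do not check the genotype. The Y-linked gene Ddx3y read 2893 in wild-type skin and 2.36 in knockout skin, and Xist was 3.87-fold higher in the knockout pool. Sex and genotype therefore cannot be told apart. The keratins that define skin were bright in both pools, with Krt5 at 247197 and 224586 and Krt10 at 232907 and 241231.

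Of the 9 genes, 2 reached 1.5-fold toward the knockout, against 6.77% of all measured genes, and 2 reached 1.5-fold toward the wild type, against 4.47%. Pnpla7 and Pnpla2 were the higher pair, and Pnpla5 and Pnpla3 the lower pair. The other 5 genes lay between 0.01 and 0.17 log2, each smaller than the software's error for its pair of spots. At 2-fold, 0 were higher and 1 was lower, where 2.24% and 1.44% of all genes passed. The median of the 9 was 0.07 log2, beside 0.01 for all genes.

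**Figure D1:**
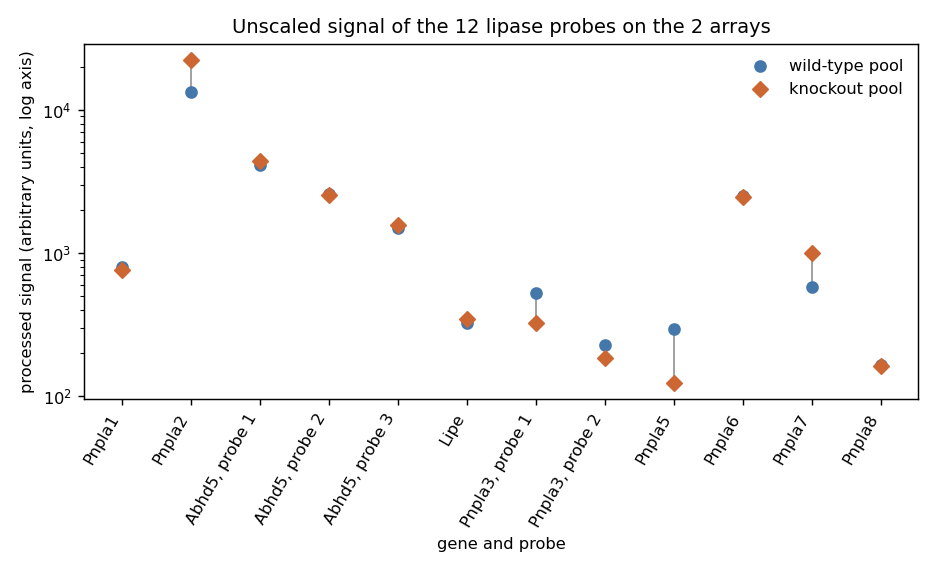
Unscaled processed signal (arbitrary units, log axis) of the 12 probes, with a circle for the wild-type pool and a diamond for the knockout pool, and probes of a gene numbered from its brightest. The pairs stand clearly apart for Pnpla2, Pnpla7, Pnpla5 and the brighter Pnpla3 probe, and nearly overlap for Pnpla1, Abhd5, Lipe, Pnpla6 and Pnpla8.

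Among the enzymes of triacylglycerol breakdown, Pnpla2 was higher in the knockout pool and its partners were near equal. Pnpla2 read 13378 in wild-type skin and 22286 in knockout skin. The difference was 0.83 log2 with an error of 0.20, or 1.77-fold. As high a difference was reached by 3.40% of all measured genes, and among the 4811 genes of brightest signal, where the Pnpla2 probe belongs, 3.22% passed 1.5-fold in that direction. RNA from whole skin cannot tell more Pnpla2 RNA per cell from more cells that express it.

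Abhd5, which encodes the activator of Pnpla2, had 3 probes spread along its transcript. The brightest read 4148 in wild-type skin and 4385 in knockout skin, the next 2574 and 2564, and the dimmest 1494 and 1566. Their differences were 0.17, 0.09 and 0.16 log2, each with an error of 0.20, so the 3 probes gave like values close to 0. Lipe, whose product acts after Pnpla2, read 327 in wild-type skin and 346 in knockout skin, a difference of 0.17 with an error of 0.21. The difference of Pnpla2 exceeded that of Abhd5 by 0.66 log2 and that of Lipe by 0.66, each with an error of 0.29.

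Pnpla1, the acylceramide transacylase of the granular layer, differed by less than its error. Its probe read 799.6 in wild-type skin and 757 in knockout skin, and the scaled difference was 0.01 log2 with an error of 0.20.

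Pnpla5 and Pnpla3 were lower in the knockout pool, though the dimmer Pnpla3 probe fell short of 1.5-fold. Pnpla5 read 296 in wild-type skin and 125 in knockout skin, a difference of -1.15 log2 with an error of 0.21. This left 44.9% of the wild-type level and was the largest difference among the 9 genes. As low a difference was reached by 1.02% of all measured genes. With measured genes split into 4 bins of signal, the Pnpla5 probe lies in the bin next to the dimmest, where 5.03% of genes passed 1.5-fold toward the wild type. With normexp background correction and an offset of 50, which draw low signals together, the difference was -0.76.

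For Pnpla3 the 2 probes differed in size. The brighter read 529 in wild-type skin and 326 in knockout skin, a difference of -0.61 log2 with an error of 0.20, or 1.52-fold lower. The dimmer read 229.6 and 186, a difference of -0.21 with an error of 0.21. Both were lower in the knockout pool, but the dimmer fell short of 1.5-fold, and the mean of the 2 probes was -0.41. With normexp the brighter probe gave -0.47. The call for Pnpla3 therefore rests on 1 probe whose value lies just past the 1.5-fold line at 0.58 log2.

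The lysophospholipases Pnpla6 and Pnpla7 are close relatives and gave unlike values. Pnpla7 read 580.4 in wild-type skin and 1004 in knockout skin, a difference of 0.88 log2 with an error of 0.20, or 1.84-fold. As high a difference was reached by 2.97% of all measured genes, and in its bin of signal, the same as that of Pnpla5, 7.88% passed 1.5-fold in that direction. Pnpla6 read 2494 and 2454, a difference of 0.07 with an error of 0.20. The difference of Pnpla7 exceeded that of Pnpla6 by 0.81 log2, with an error of 0.29. Pnpla8, the mitochondrial and peroxisomal phospholipase, read 166 in wild-type skin and 163 in knockout skin, a difference of 0.06 with an error of 0.21.

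**Figure D2:**
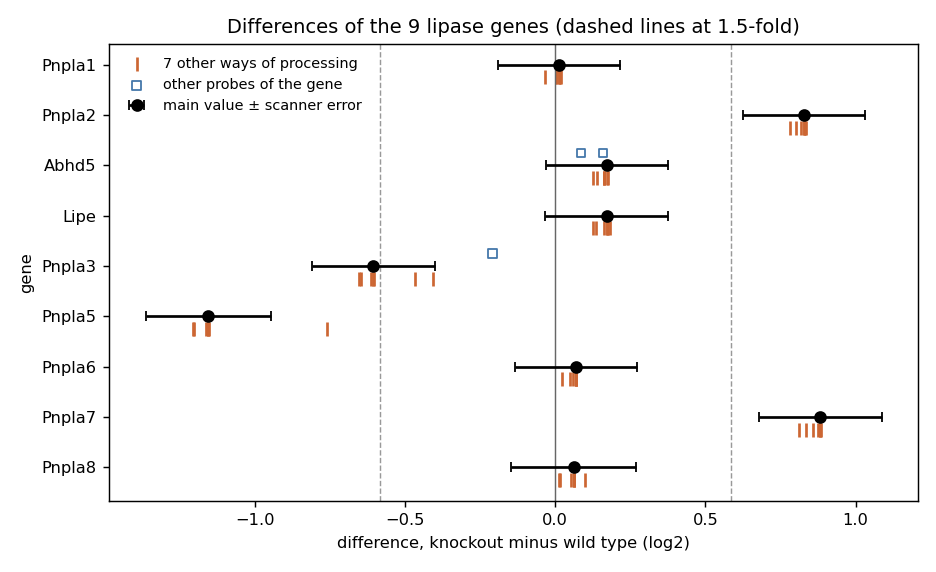
Difference between the pools (knockout minus wild type, log2) for each gene, as a black circle with the scanner error, with orange ticks for 7 other ways of processing and open squares for further probes of the gene. Pnpla2 and Pnpla7 lie right of the 1.5-fold line under all 7, while Pnpla3 moves inside the lower line at -0.41 when its probes are averaged and at -0.47 with normexp.

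**Figure D3:**
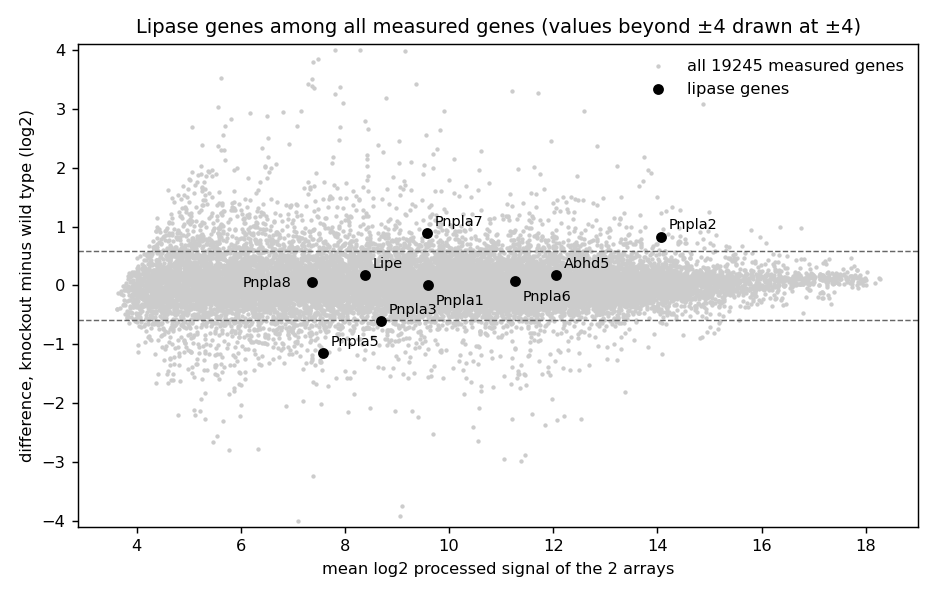
Difference between the pools (log2) against the mean log2 processed signal of the arrays, for all 19245 measured genes in grey and the 9 lipase genes in black, with dashed lines at 1.5-fold. Pnpla2, Pnpla7 and Pnpla5 lie outside the lines, Pnpla3 lies on the lower line, and the other 5 lie inside the grey band near 0.

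Pnpla5 and Pnpla3, the lower pair, are adjacent genes, with probes 0.0768 Mb apart on chromosome 15 of mm9. The genes on either side were near 0, with Sult4a1 at 0.10 log2 and Samm50 at -0.16. Pnpla7 shares chromosome 2 with Pla2g4e, and their probes lie 95.1 Mb apart. Any bearing of this shared chromosome on the Pnpla7 value was not tested.

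Promoter sequences were found for all 9 genes in RefSeq (GRCm38.p6). The 250 bases before the start site are shown for the 4 genes that differed, 5′ to 3′ on the gene's strand. Capitals mark matches, on either strand, to any of 8 motifs. The letters searched were TGTTTAC for FOXO factors, CACGTG for the E-box and TCACNCCAC for SREBP. They were CCAAT for NF-Y, the box TATAAA for the TATA-binding protein and GGGCGG for Sp1. The palindromic element of the glucocorticoid receptor and the direct repeat of PPAR completed the set. No match overlapped another in these 4 promoters.

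Pnpla2, chr7:141454938-141455187, plus strand: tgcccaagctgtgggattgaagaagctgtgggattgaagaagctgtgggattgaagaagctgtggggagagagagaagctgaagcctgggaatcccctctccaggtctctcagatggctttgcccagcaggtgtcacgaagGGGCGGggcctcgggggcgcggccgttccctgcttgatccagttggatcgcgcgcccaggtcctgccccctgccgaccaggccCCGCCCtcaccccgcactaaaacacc
Pnpla7, chr2:24975783-24976032, plus strand: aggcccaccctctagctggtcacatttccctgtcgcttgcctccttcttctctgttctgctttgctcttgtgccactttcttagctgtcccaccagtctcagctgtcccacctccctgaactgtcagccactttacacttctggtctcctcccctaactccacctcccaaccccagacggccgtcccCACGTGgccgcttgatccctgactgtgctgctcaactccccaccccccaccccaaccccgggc
Pnpla5, chr15:84123176-84123425, minus strand: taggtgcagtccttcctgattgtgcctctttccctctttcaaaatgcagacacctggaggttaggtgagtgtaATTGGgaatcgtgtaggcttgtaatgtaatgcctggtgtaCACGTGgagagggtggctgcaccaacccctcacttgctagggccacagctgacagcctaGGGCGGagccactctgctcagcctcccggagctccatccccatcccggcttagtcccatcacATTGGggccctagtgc
Pnpla3, chr15:84167566-84167815, plus strand: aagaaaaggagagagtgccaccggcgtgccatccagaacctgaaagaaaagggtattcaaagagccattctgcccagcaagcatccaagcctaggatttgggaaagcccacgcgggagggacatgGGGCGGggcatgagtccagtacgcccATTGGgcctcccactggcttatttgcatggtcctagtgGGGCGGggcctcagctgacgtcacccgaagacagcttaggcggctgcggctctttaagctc

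The 2 higher genes shared none of the 8 motifs in this window. Pnpla2 held Sp1 matches at -109 and -26, a motif that 32.7% of 32851 RefSeq promoters hold, and Pnpla7 held an E-box at -63, which 6.02% hold. The 2 lower genes both held Sp1 and NF-Y matches. In Pnpla5 the NF-Y matches stood at -177 and -16, beside an E-box at -137 and an Sp1 match at -78. In Pnpla3 an NF-Y match stood at -99 and Sp1 matches at -125 and -61. NF-Y letters occur in 33.8% of all promoters. These letters are not particular to the genes that differed. Among the lipases inside 1.5-fold, NF-Y letters stood before Pnpla1 and before a start site of Pnpla6. Sp1 letters stood before Lipe, Abhd5, Pnpla8 and another start site of Pnpla6, and Lipe also held an E-box. The letters for FOXO (in 3.17% of promoters), the glucocorticoid receptor (0.00913%), SREBP (1.05%), PPAR (0.0335%) and TATA (12.4%) were in none of these 4 windows. A match describes letters and was not tested as a binding site.

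The genes around these lipases were described with 8 pathway lists, which held 171 genes outside the 9. Of 166 measured, 13 passed 1.5-fold upward in the knockout pool (7.83%, against 6.77% of all genes) and 12 lower (7.23%, against 4.47%). Their median was 0.05 log2. These shares were not tested, and some genes are on more than 1 list.

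Among droplet coat proteins and lipase inhibitors, 2 of 18 measured genes were higher and 2 lower, with a median of 0.05 log2. G0s2, a direct inhibitor of Pnpla2, read 2434 in wild-type skin and 633 in knockout skin, a difference of -1.85 with an error of 0.20, or 3.61-fold lower. Pnpla2 and G0s2 thus differed in opposite directions, by 2.68 log2 from each other with an error of 0.29. Hilpda, also on this list of coat proteins and inhibitors, read 2348 in wild-type skin and 2037 in knockout skin, a difference of -0.11. Plin1, which coats adipocyte droplets and holds Abhd5 away from Pnpla2, read 6886 and 2948, a difference of -1.13. Plin5, a coat protein of oxidative tissues that binds Pnpla2, read 1779.5 in wild-type skin and 3827 in knockout skin, a difference of 1.20. Hsd17b11, a dehydrogenase found on droplets, stood at 0.87. The general coat protein Plin2 stood at -0.04 and Cidec, which enlarges adipocyte droplets, at -0.11.

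Other glycerolipid lipases ran from -1.07 to 0.59 log2. Of 22 measured genes, Abhd2 was the 1 higher at 0.59, just past the line, and Ces1f, a carboxylesterase, the 1 lower at -1.07. Mgll, which completes triacylglycerol breakdown after Lipe, stood at -0.58, just short of the line. The epidermal lipases Lipk (0.45), Lipn (0.40) and Lipm (0.24) all lay above 0 and inside 1.5-fold. The list's median was 0.13 log2.

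Triacylglycerol synthesis genes had a median of -0.11 log2 over 24 measured genes, of which 2 were higher and 3 lower. Mogat2, a monoacylglycerol acyltransferase with a dim probe (48.2 and 105), stood at 1.22. Lpin1, the phosphatidate phosphatase that makes diacylglycerol, read 640.2 in wild-type skin and 1213 in knockout skin, a difference of 1.01. Soat1, which esterifies cholesterol (-0.90), Agpat2 of the fat cell (-0.65) and the wax synthase Awat2 (-0.61) were the lower 3. Dgat2, which completes triacylglycerol, stood at 0.09.

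The acylceramide pathway in which Pnpla1 acts held 1 higher and 3 lower genes of 25, with a median of 0.18 log2. The lower 3 were the fatty acid hydroxylase Fa2h, which read 4312 and 1268 (-1.67), and the elongases Elovl3 (-1.13) and Elovl6 (-0.75). Degs2, a sphingolipid desaturase and hydroxylase, was the 1 higher gene at 0.98. The steps directly before Pnpla1 were near 0, with the elongase Elovl4 at 0.11, the omega-hydroxylase Cyp4f39 at -0.00077 and the ceramide synthase Cers3 at 0.22.

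In lysophospholipid and glycerophosphocholine breakdown, Pnpla7 itself was the 1 gene of 18 past 1.5-fold, and 0 were lower. The measured phosphodiesterases of the list ran from -0.25 (Gdpd5) to 0.21 (Gdpd2), with Gpcpd1 at 0.18 and Gdpd3 at 0.01. The median was 0.05 log2.

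Receptors and signals that control lipolysis gave 3 higher genes and 1 lower of 25, with a median of 0.15 log2. The insulin receptor substrate Irs2 read 8459 in wild-type skin and 15748 in knockout skin, a difference of 0.99. Adora1, an adenosine receptor that restrains lipolysis, stood at 1.61 from a dim probe (14.3 and 41.0, with an error of 0.35). Pik3r1, a subunit of phosphoinositide 3-kinase, stood at 0.59, just past the line. The short-chain fatty acid receptor Ffar2 was the 1 lower gene at -1.01, and the fat-cell adrenergic receptor Adrb3 stood at -0.57.

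Lipogenic factors and enzymes, the setting in which Pnpla3 and Pnpla5 are best known, had a median of -0.13 log2. Of 18 measured genes, 3 were lower, namely the fatty acid synthase Fasn (742 and 397, -0.81), Elovl6 (-0.75) and the desaturase Scd1 (-0.68). Nr1h3, the sterol receptor LXR alpha, was the 1 higher at 0.62. The factors Srebf1 (-0.21) and Mlxipl (-0.03) stood near 0. In all, 4 of the 18 genes lay above 0.

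Receptors activated by fatty acids and their target genes held 3 higher genes and 0 lower of 20, with a median of 0.15 log2. Pdk4, which restrains glucose oxidation, read 3408 and 8823, a difference of 1.46. Ppara, the receptor itself, read 944 and 2046 (1.21), but its 3 probes ran from 0.35 to 1.21. Ppargc1a, a coactivator of mitochondrial genes, stood at 0.68. Angptl4, another target, stood at 0.16, Foxo1, a factor known to act on Pnpla2, at 0.06, and Pparg at -0.22.

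**Figure D4:**
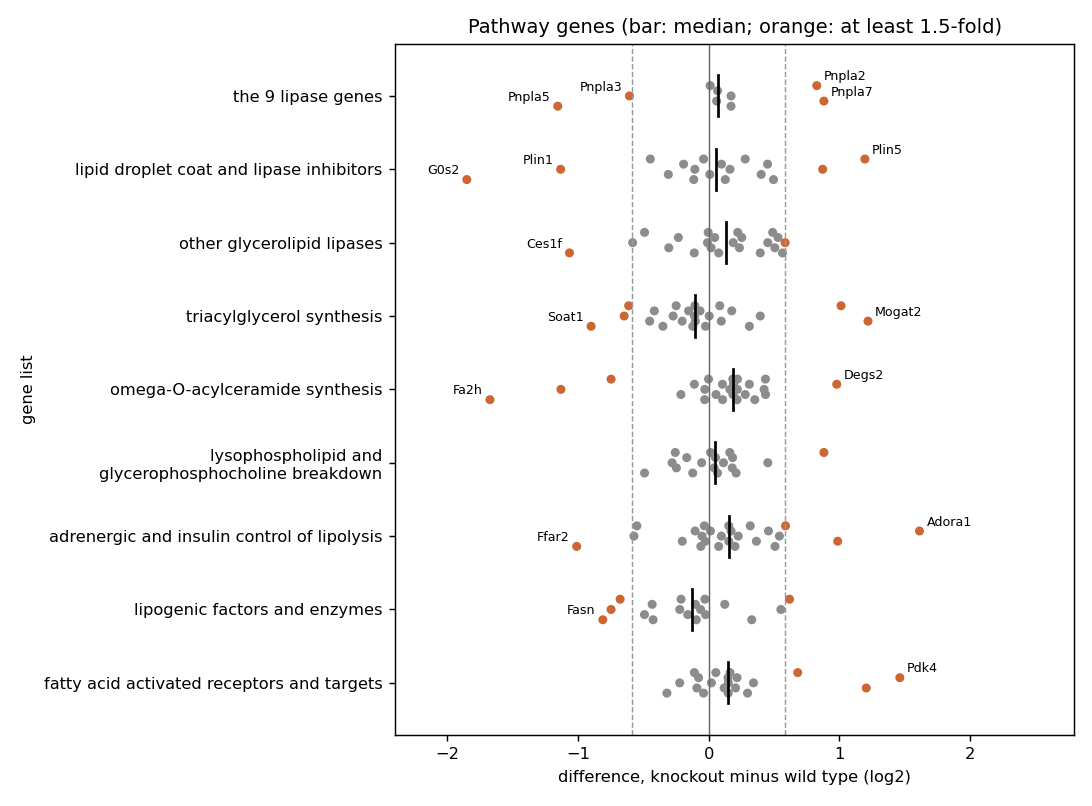
Difference between the pools (knockout minus wild type, log2) of each measured gene in the 9 lipases and the 8 pathway lists, with a black bar at each list's median, dashed lines at 1.5-fold and genes past them in orange. The medians lie between -0.13 and 0.18, and single genes such as G0s2 (-1.85), Plin1 (-1.13), Plin5 (1.20) and Pdk4 (1.46) lie far from them.

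Markers of tissues in which these lipases are active were compared too. Of all measured genes, 6.77% passed 1.5-fold upward and 4.47% downward. Among markers past that line, Plin1, Agpat2, Soat1, Awat2, Elovl3 and Ppargc1a are also on the pathway lists above, so their values are repeated here. Of 9 measured white adipocyte markers, 4 were at least 1.5-fold lower, namely Plin1, Agpat2, Adipoq and Retn, and 0 were higher, with a median of -0.38 log2. Lipe, itself on that list, stood highest at 0.17. The summed scaled signal of the list was 0.853 times the wild-type level. Such sums are weighted to the brightest genes, here Fabp4 (-0.09) and Cfd (-0.17). All 12 skeletal muscle markers were above 0, from 0.18 to 1.36, with 2 past 1.5-fold and a summed signal 1.28 times the wild-type level. Of 9 sebocyte markers, 2 were lower (Soat1 and Awat2) and 0 higher, with a sum 0.878 times the wild-type level. That sum was dominated by Krt79, which read 131739 in wild-type skin and 107600 in knockout skin (-0.20). All 17 hair follicle markers were below 0, with 12 past 1.5-fold and a sum 0.633 times the wild-type level. Brown adipocyte markers, 8 measured with 1 higher (Ppargc1a) and 1 lower (Elovl3), had a median of 0.14 and a sum 0.973 times. Granular, spinous and basal keratinocyte lists had sums above the wild-type level by 0.12, 0.14 and 0.09 log2. Higher were 2 of 10 granular markers (Hrnr at 0.69 and Ivl at 0.63), 0 of 7 spinous and 1 of 8 basal (Dst at 0.72), and 0 were lower. Fibroblast markers summed to 1.05 times, with 0 of 8 past 1.5-fold, and macrophage markers to 1.06 times, with 1 of 9 higher (Cd163 at 1.02). Endothelial markers summed to 1.42 times, with 5 of 9 higher, erythroid markers to 1.41 times, with 4 of 8 higher, and neutrophil markers to 1.11 times, with 6 of 8 higher and 1 lower. The erythroid sum was dominated by Hba-a1, which read 80236 in wild-type skin and 106057 in knockout skin (0.49). The neutrophil median was 1.79 log2, while its sum was dominated by Csf3r, which read 125040.5 and 113910 (-0.04). Of the white adipocyte markers, Lep passed the background mark in wild-type skin but not in knockout skin. The part of these cell types in the lipase differences was not tested.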

How the data were processed

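RNA of pooled skin was labelled with Cy3 and hybridised to 1-colour Agilent arrays. The scanner files deposited by the authors hold a linear intensity per spot, already background-subtracted and detrended by Agilent Feature Extraction 11.5.1.1. The version comes from the submitters' processing notes and the steps are given per the file headers. The files also hold other columns, marks and probe positions on mm9. The deposited value table holds a ratio per spot, equal to that intensity divided by 2406 for the wild-type and 2273 for the knockout array, with medians of 0.0946 and 0.0969. It is linear and not centred by gene, and why these divisors were used is unknown.

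Control spots and 234 outlier spots were left out, and 0 spots were saturated. Log2 intensities were averaged per probe and scaled to the array's 75th percentile (Python 3.11.15, pandas 2.3.3). Normexp (with an offset of 50) and quantile alternatives used limma 3.58.1. Genes were named by RefSeq accession, symbol or synonym (GRCm38.p6 table, names only), and 19245 had a probe well above background on both arrays, the brightest being used. Of 39422 probes, 28326 were named by accession, 2204 by symbol, 174 by synonym and 1526 kept the file's name. Genes were counted at 1.5-fold, with no test, since each group held 1 array. The arrays' number limits the precision. The counting was checked on simulated data, with changes well past 1.5-fold and noise below the software's error. That check tests the code and does not bear on values near the 1.5-fold line.

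All 9 lipases were named, with pathway genes at least 1.5-fold different, at most 6 per list; 1 list gene is not reported here and was left out of its list. Other genes named were picked after their values were seen. The members and lists were chosen with earlier results of these data known. Alternatives were other scalings, background correction, probe averaging, no dim filter, the value table and a 2-fold line.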

Additional observations from a re-analysis of the deposited data

How the results depend on the processing

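Each of the 9 differences was recomputed in 7 other ways, and 0 of the called ones changed sign. Pnpla2 ran from 0.78 to 0.83 log2, Pnpla7 from 0.81 to 0.88 and Pnpla3 from -0.65 to -0.41, while Pnpla5 ran from -1.21 to -0.76, the last with normexp background correction. At least 1.5-fold lower were 2 members in the main setting and 1 with normexp, 1 with probes averaged and 1 at 2-fold, and at least 2-fold higher were 0. Of the 166 measured pathway genes, 6 were higher and 6 lower at 2-fold, where 2.24% and 1.44% of all measured genes passed. With normexp 4.41% of all genes passed 1.5-fold upward and 2.20% downward. No paired analysis was possible because each group had 1 array, and for the same reason no array could be left out. Dim probes, such as that of Pnpla5, are limited by their signal over background, and values describe these pools, which differed in sex.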

Other observations

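Genes next to the lipases were looked up to 3 places away on either side in RefSeq order, among protein-coding genes. Of 48 such genes outside the 9, 44 were measured, with a median of 0.05 log2. Pnpla5 (-1.15) and Pnpla3 (-0.61), which are neighbours of each other, were left out of these counts. At least 1.5-fold higher were 3, namely Cxcl17 (0.96) and Ceacam2 (0.66) beside Lipe and Bnip5 (0.73) beside Pnpla1. At least 1.5-fold lower were 2, Pidd1 (-0.78) beside Pnpla2 and Zmynd19 (-0.72) beside Pnpla7. Over all measured genes, 6.77% and 4.47% passed 1.5-fold upward and downward, so the neighbours' counts were near the background.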
